A study of Caenorhabditis elegans with 12 samples.

Results

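The C-type lectin genes of Caenorhabditis elegans are described here by the small RNA reads counted at them. The members are all genes of the deposited table whose WormBase symbol in the WBcel235 annotation, joined on the WormBase gene identifier, is clec followed by a number. There were 240 such rows among 46726 features. They carry 237 distinct symbols, because clec-209, clec-15 and clec-249 each stand for 2 rows, and each such pair had identical reads. All 240 are annotated as protein-coding.

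The study sequenced small RNAs of adult whole animals grown at 20 °C, in 12 samples that form 4 groups of 3. The hrde-2 strain, YY1192, carries hrde-1(gg594) and hrde-2(gg517), and was fed bacteria making double-stranded RNA (dsRNA) against oma-1 or bacteria with the L4440 vector. The control is strain YY1312, which has hrde-1(gg594) alone and was fed the same 2 foods, so that the gg594 allele is common to all 4 groups. No source used here says what that allele changes, and the sample titles call the control wild-type. The 5′ barcode of the libraries differed by genotype and was the same on both foods, so that genotype and barcode cannot be told apart. The deposited table has 1 column per group and none per sample. A difference between 2 columns therefore has no replicate error, and each such ratio carries an interval that covers counting error only.

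C-type lectins are proteins with a carbohydrate-recognition type of fold, and nematodes have a greatly expanded family of them. Many are secreted by the intestine, and several are known in C. elegans for mRNA that is induced by pathogens. Small RNAs of the 22G class are made by RNA-dependent RNA polymerases on mRNA templates and are antisense to them, so small RNA reads at a gene are not its mRNA level. HRDE-1 is a nuclear Argonaute that carries such small RNAs in the germline, and HRDE-2 is a germline protein needed for RNAi inheritance. In whole animals, fewer cells of a type and less small RNA per cell cannot be told apart.

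Reads assigned to genes numbered between 16057238 and 39077097 per column, and levels are given as CPM, the usual count scaled by library size, after TMM scaling, which sets the columns to a common level over most features. At oma-1, the target of the dsRNA, 5250 reads were counted in hrde-2 on oma-1 dsRNA and 148 in hrde-2 on L4440, and 10881 in control on oma-1 dsRNA and 37 in control on L4440. The hrde-2 gene had 14 and 50 reads in the hrde-2 columns and 13 and 7 in the control columns, which does not check the genotype labels, since small RNAs are not the transcript of the mutated gene. The scaling matters for every difference between genotypes. With TMM the median log2 difference, hrde-2 over control, of the features compared was −0.47 on L4440 and −0.39 on oma-1 dsRNA, with the authors' own constants 0.51 and 0.35, with TMM over features at 10 CPM or more in 3 columns 0.65 and 0.68, and with library size alone 1.17 and 0.88.

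Most C-type lectin genes had few small RNA reads. The median member had 4 reads in hrde-2 on oma-1 dsRNA, 13 in hrde-2 on L4440, 4 in control on oma-1 dsRNA and 2 in control on L4440. The highest had 418, 1129, 419 and 234 reads in the same columns. As levels, the member medians were 0.183 and 0.195 CPM in hrde-2 and 0.176 and 0.122 CPM in control, below the medians of all protein-coding genes in each column (0.367 and 0.390 CPM in hrde-2, 0.351 and 0.367 CPM in control). Reads were found in all 4 columns at 183 members, and no member lacked reads everywhere. The number of members at 0 was 12 in hrde-2 on oma-1 dsRNA, 0 in hrde-2 on L4440, which is the most deeply sequenced column, 21 in control on oma-1 dsRNA and 42 in control on L4440. A level of 1 CPM in at least 1 column was reached by 36 members, and 5 CPM, the level asked for in the comparisons of 2 columns, by 7.

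The family's small RNAs were concentrated in a few genes. The 10 members with most reads held 47.7% and 46.9% of the family's reads in hrde-2 on oma-1 dsRNA and on L4440, and 55.7% and 50.7% in control. Per kilobase of exon, the scale on which genes can be set against each other, clec-219 was highest in 3 of the 4 columns, at 23.4 and 20.7 CPM per kilobase in hrde-2 on oma-1 dsRNA and on L4440 and 19.2 and 17.1 in control. The genes named clec-209 followed with 10.6 and 9.14 in hrde-2 and 20.6 and 10.7 in control, which put them above clec-219 in control on oma-1 dsRNA. Below them the order differed between the strains. In hrde-2 the next places were held by clec-63, with 7.28 and 6.13 CPM per kilobase on oma-1 dsRNA and on L4440, and clec-215, with 6.95 and 7.12. In control clec-70 came next, with 6.05 and 9.57 CPM per kilobase, and then clec-63 with 4.57 and 4.29. Further genes among the 10 with most reads per kilobase over the 4 columns were clec-87, clec-50, clec-84 and clec-1.

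Of these abundant genes, clec-87, which encodes a core protein of chondroitin proteoglycans, differed little between columns, with 69 and 197 reads (3.29 and 3.08 CPM per kilobase) in hrde-2 on oma-1 dsRNA and on L4440 and 74 and 67 reads (3.38 and 4.27) in control. The lectin gene clec-50 had 61 and 190 reads in hrde-2 and 85 and 44 in control. For clec-84 the reads were 42 and 166 in hrde-2 and 58 and 40 in control, and for clec-1 they were 27 and 100 in hrde-2 and 40 and 37 in control. None of these 4 passed the genotype test described below, where their log2 differences lay between −0.55 and −0.16.

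**Figure D1:**
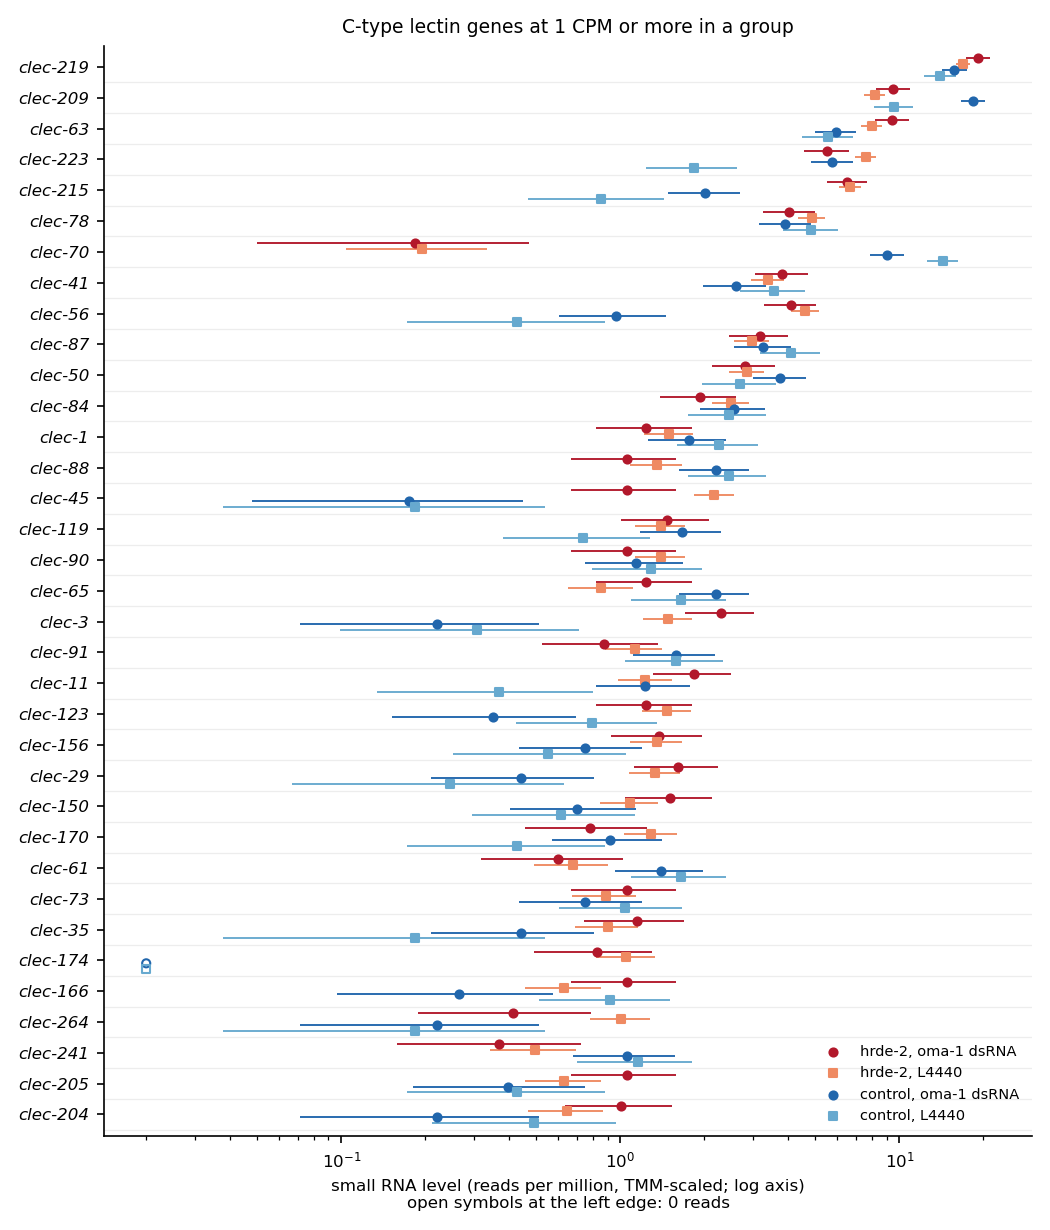
Small RNA level (CPM after TMM scaling, log axis) of the 35 C-type lectin gene symbols that reached 1 CPM in a column, ordered by total reads, with a point for each of the 4 columns and bars for exact Poisson 95% intervals, which cover counting error only. The levels of clec-70 in hrde-2 (0.183 and 0.195 CPM) lie far left of those in control (9.04 and 14.3 CPM), and clec-174 has open symbols, for 0 reads, in both control columns.

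Between hrde-2 and control on L4440, clec-215 and clec-223 were higher in hrde-2 and clec-70 was lower. A member was compared where the higher column had 5 CPM or more, and counted as higher or lower at 2-fold or more. Of 7 members compared, 2 were higher, beside 13.1% of the 2138 features compared, and 1 was lower, beside 29.5%. The 7 members are 6 symbols, because both clec-209 rows count. With so few members the shares cannot be read against the background. The members' median log2 difference was 0.27, and that of all features compared was −0.47.

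The lectin gene clec-223 lies on chromosome V (11273148 to 11278161, plus strand). It had 505 reads in hrde-2 on L4440, against 30 in control on L4440, which are 7.57 and 1.83 CPM. The ratio was 4.13 (95% counting interval 2.86 to 6.19). On oma-1 dsRNA it had 120 reads in hrde-2 and 131 in control (5.50 and 5.75 CPM), a ratio of 0.957 (0.741 to 1.24), so that control on L4440 stood below the other 3 columns. Relative to the median of all features compared, its log2 difference was 2.50 on L4440 and 0.33 on oma-1 dsRNA. With library size alone the ratio on oma-1 dsRNA was 1.95, and with TMM over features at 10 CPM it was 1.72, both on the other side of 1, while the log2 differences relative to the median were 0.08 and 0.10.

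The lectin gene clec-215 (chromosome V, 7612344 to 7615648) had 444 reads in hrde-2 on L4440, against 14 in control on L4440. These are 6.66 and 0.856 CPM, a ratio of 7.78 (4.59 to 14.4). On oma-1 dsRNA it had 142 reads in hrde-2 and 46 in control, with a ratio of 3.22 (2.30 to 4.60). Both hrde-2 columns were above both control columns, and the difference was smaller on oma-1 dsRNA. Another gene, C27D8.3, had near-equal reads (135 and 452 in hrde-2 on oma-1 dsRNA and on L4440, 44 and 21 in control), and whether the same reads were counted at both was not tested.

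The lectin gene clec-70 (chromosome IV, 3932708 to 3936307, plus strand), known for mRNA induced by bacterial infection, went the other way. It had 13 reads in hrde-2 on L4440 against 234 in control on L4440, and 4 reads in hrde-2 on oma-1 dsRNA against 206 in control on oma-1 dsRNA. The ratios were 0.0136 (0.00715 to 0.0238) and 0.0203 (0.00547 to 0.0527), or −6.09 and −5.51 on the log2 scale. Relative to the median of all features compared they were −5.62 and −5.12. Both hrde-2 columns were below both control columns, with no replicate spread to set this against. Near-equal reads were listed at ZK783.6, a pseudogene on chromosome III (7648788 to 7650007), with 6 and 14 in hrde-2 on oma-1 dsRNA and on L4440 and 219 and 236 in control. Whether the 2 genes share reads was not tested.

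Among all features with 400 reads or more in total, 5 had a log2 difference of −5 or less in both genotype comparisons, and clec-70 and ZK783.6 were 2 of them. The others were acs-16, named as an acyl-CoA synthetase gene, with 16 and 56 reads in hrde-2 on oma-1 dsRNA and on L4440 and 1352 and 1103 in control, T14F9.2 with 21 and 68 in hrde-2 and 1313 and 1100 in control, and sru-17, named as a chemoreceptor gene, with 4 and 18 in hrde-2 and 293 and 192 in control. They lie on chromosomes I, X and IV, and sru-17 is at 12505697, far from clec-70.

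On oma-1 dsRNA, clec-215 was the 1 member of 7 that was higher in hrde-2, beside 13.7% of 2130 features, and clec-70 the 1 that was lower, beside 27.9%. Again the members are too few to read against these shares. The other abundant members stayed under 2-fold in both comparisons. For clec-63 the ratio was 1.59 (1.28 to 1.99) on oma-1 dsRNA and 1.43 (1.14 to 1.81) on L4440, and for clec-219 it was 1.22 (1.05 to 1.40) and 1.21 (1.05 to 1.40). The clec-209 rows, with 207 reads in hrde-2 and 419 in control on oma-1 dsRNA, had a ratio of 0.516 (0.435 to 0.611) there and 0.854 (0.714 to 1.03) on L4440. With library size alone, both ratios of clec-209 were above 1 (1.05 and 2.25), and with TMM over features at 10 CPM the ratio on L4440 was 1.62. With that scaling clec-63 and clec-219 passed 2-fold on both foods. The reads of clec-219 were near-equal to those of K06B9.6 (400 and 1176 in hrde-2 on oma-1 dsRNA and on L4440, 364 and 220 in control).

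**Figure D2:**
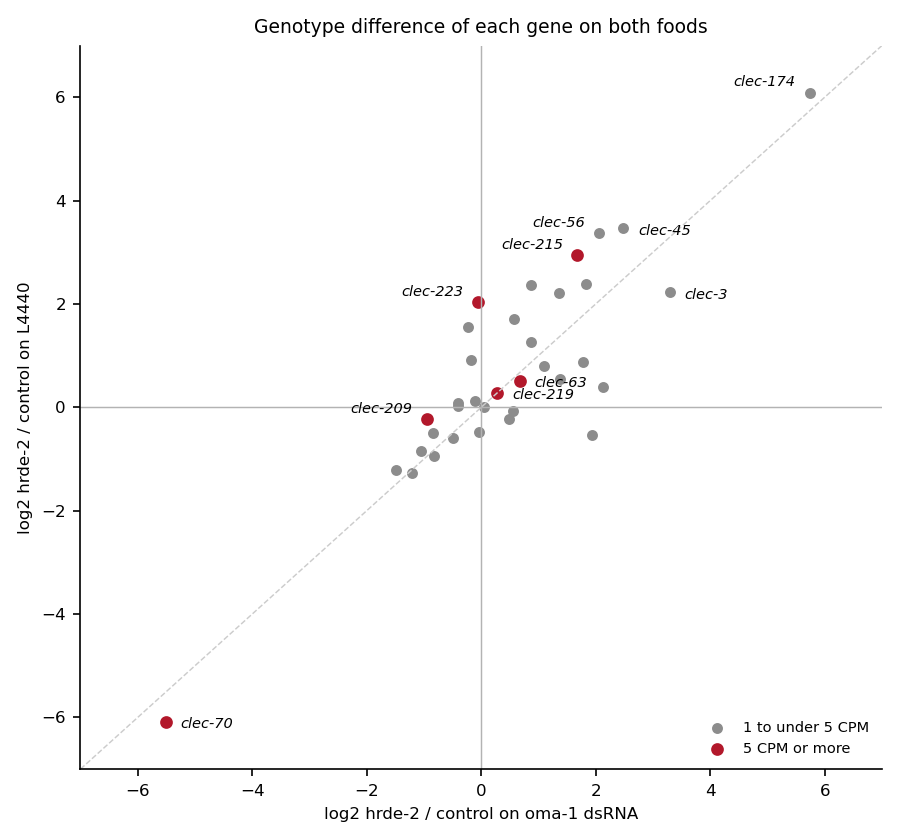
Log2 difference hrde-2 over control of the 35 gene symbols at 1 CPM or more, on oma-1 dsRNA (x axis) and on L4440 (y axis), with a prior count of 0.5 and the dashed line marking equal differences. Red points reached 5 CPM, clec-70 stands alone at the lower left, clec-223 lies near 0 on the x axis and at 2.04 on the y axis, and the place of clec-174 depends on the prior count because control had 0 reads.

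The comparisons on the 2 foods use different columns, and the members kept their direction in most cases. Of the 36 members at 1 CPM or more, 27 had the same sign on both foods, 17 higher in hrde-2 and 10 lower. The 36 are 35 symbols, because the identical clec-209 rows both count. Across these 36 the log2 differences had Pearson's r = 0.87 and Spearman's rho = 0.76, and without clec-70 r = 0.81. These are descriptions across genes, which share columns, depth and scaling within each food and are not independent replicates. The same share and correlations over all features are not given, so none is read as a trait of the members. At a level of 1 CPM, 11 of 32 members compared on L4440 were higher by 2-fold or more, beside 11.8% of 7569 features, and 3 were lower, beside 15.5%. On oma-1 dsRNA 11 of 33 were higher, beside 11.6% of 7641 features, and 4 were lower, beside 15.4%.

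The genotype effect averaged over both foods was tested with edgeR's quasi-likelihood test in an additive fit of genotype and food to the 4 columns. This fit has 1 residual degree of freedom, and its spread is that between foods and not between animals. The filter on low counts kept 130 of the 240 members and removed 110. Of the 130, 84 passed it through the hrde-2 columns only, 45 through columns of both genotypes and 1, clec-70, through the control columns only. At an adjusted p under 0.05 over 16329 features, 22 members were higher in hrde-2, beside 8.95% of all features tested, and 5 were lower, beside 9.7%. The split was 80 and 1 with library size alone, 65 and 1 with TMM over features at 10 CPM and 39 and 1 with the authors' constants. These scalings also raised the median of all features compared, as given above. Shares over all features are not given for them, so these splits are not read as results about the members.

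Entry through 1 genotype's columns alone selects for genes with more reads for the library size there. After TMM scaling such a gene can still be lower, as clec-98 was in hrde-2 (log2 −0.84). The 45 members that passed through both genotypes are therefore given apart. Of these, 8 were higher, beside 7.65% of the 10369 features that passed in the same way, and 4 were lower, beside 14.6%. Their median log2 difference was 0.02, against −0.20 for those features. Of the 84 that passed through the hrde-2 columns only, 14 were higher, beside 11.4% of 5839 features. DESeq2 with the same additive design called 4 members higher (clec-56, clec-215, clec-3 and clec-45) and clec-70 lower. All 5 members are among those called by edgeR. DESeq2 gave an adjusted p to 58 members and to 11263 features, and of these features it called 404 higher and 662 lower.

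The members with the strongest calls were far from equal in level. For clec-56 (chromosome V, 14474399 to 14476794) the reads were 89 and 306 in hrde-2 on oma-1 dsRNA and on L4440 and 22 and 7 in control. Its averaged log2 difference was 2.59 (SE 0.306, edgeR adjusted p = 3.07e-15). Near-equal reads were listed at F38E11.9, a gene on chromosome IV (9442877 to 9444040), with 96 and 304 in hrde-2 and 12 and 4 in control, and whether the same reads were counted at both was not tested. The reads of clec-3 (chromosome II) were 50 and 99 in hrde-2 on oma-1 dsRNA and on L4440 and 5 and 5 in control. Both hrde-2 columns of clec-56 and of clec-3 were above both control columns. The log2 difference of clec-3 was 2.87 (SE 0.415, edgeR adjusted p = 2.60e-10). The gene clec-45 (chromosome V) had 23 and 145 reads in hrde-2 and 4 and 3 in control, a log2 difference of 3.07 (SE 0.459, edgeR adjusted p = 1.08e-09). For clec-215 the value was 2.20 (SE 0.294, edgeR adjusted p = 5.65e-12), and for clec-223, where 1 food carries the difference, 0.88 (SE 0.286, edgeR adjusted p = 0.0145).

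Some calls rest on very few control reads. Of the members named here, clec-3, clec-45, clec-174, clec-191, clec-108, clec-2, clec-57, clec-29 and clec-76 passed the filter through the hrde-2 columns only. This selects for a higher level there, and their calls are descriptions. The gene clec-174 had 18 and 70 reads in hrde-2 on oma-1 dsRNA and on L4440 and 0 and 0 in control. Against a floor of 3 reads per control column the level in hrde-2 was at least 6.27-fold higher with oma-1 dsRNA food and at least 5.73-fold higher with L4440 food. With DESeq2 it was not called (adjusted p = 0.458). For clec-191, with 6 and 11 reads in hrde-2 and 0 and 0 in control, the fold with oma-1 dsRNA food was at least 2.09, and none is given for L4440 food, where the level was under that floor. DESeq2 gave it no adjusted p. The gene clec-108 had 11 and 32 reads in hrde-2 and 0 and 1 in control.

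Further calls had a control column with no read. The gene clec-2, next to clec-3 on chromosome II, had 9 and 44 reads in hrde-2 on oma-1 dsRNA and on L4440 and 4 and 0 in control. Next to clec-56, clec-57 had 10 and 28 reads in hrde-2 and 4 and 0 in control. With reads in every column, clec-29 had 35 and 89 in hrde-2 and 10 and 4 in control, and its log2 difference was 2.08 (SE 0.401, edgeR adjusted p = 5.34e-06). The other 11 of the 22 members called higher had log2 differences between 0.97 and 1.84. Of the 22, 21 were higher in hrde-2 on both foods. The call averages over these same foods, so this describes the called members and is not a repeat.

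The 5 members called lower in hrde-2 were clec-70, clec-241, clec-61, clec-88 and clec-65. The filter kept clec-70 through the control columns only, which selects for a higher level there, so its call is a description. Its averaged log2 difference was −6.01 (SE 0.389, edgeR adjusted p = 2.66e-49). The reads of clec-61 were 13 and 45 in hrde-2 on oma-1 dsRNA and on L4440 and 32 and 27 in control, and its log2 difference was −1.26 (SE 0.332, edgeR adjusted p = 0.00161). The other three had log2 differences of −1.33 for clec-241, −0.94 for clec-88 and −0.89 for clec-65. With library size alone, with TMM over features at 10 CPM, with the authors' constants and with DESeq2, clec-70 was the 1 member still called lower, and with library size clec-88 and clec-65 had positive values (0.29 and 0.33).

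**Figure D3:**
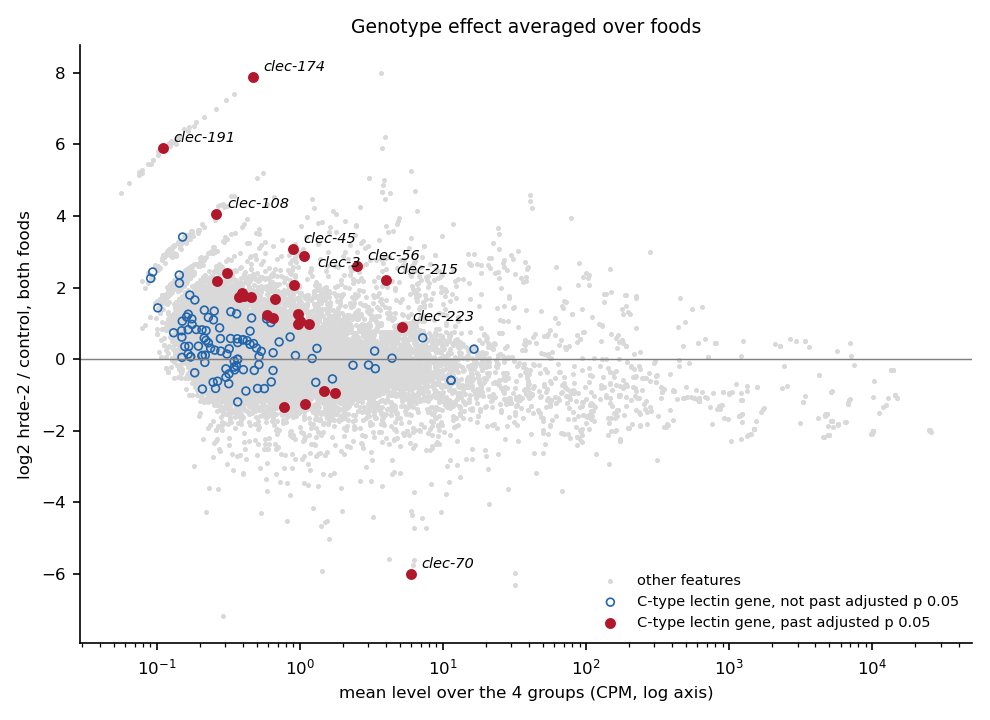
Log2 difference hrde-2 over control averaged over both foods (edgeR additive fit) against the mean level over the 4 columns (CPM, log axis), for all features tested (grey) and the 130 C-type lectin genes tested (open blue, or red where the adjusted p was under 0.05). The 22 red points above 0 lie at low and middle levels, the 5 below 0 include clec-70 at −6.01, and the fitted values of clec-174 and clec-191, which had no control reads, depend on the prior count.

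Among members known for pathogen-induced mRNA, clec-70 was lower in hrde-2 under each scaling tried, and none was called higher with TMM. Of 16 such genes 14 were tested, of which 0 were higher in hrde-2 and 3 were lower (clec-70, clec-61 and clec-65), beside 8.95% higher and 9.7% lower of all features tested. The filter kept clec-70 through the control columns only, and 55.4% of the 121 features kept in that way were lower. Its call is therefore a description and does not count as a result about the list. The calls of clec-61 and clec-65 were lost with library size alone, where clec-65 had a log2 value of 0.33, and with TMM over features at 10 CPM, the authors' constants and DESeq2. Of the 14, 9 had a log2 difference above 0, and the median was 0.20, against 0.02 for all features tested. The list was chosen with results of these data known. A further list of 128 genes was picked by symbol (lysozymes, saposin-like and caenacin genes, and abf, fip, fipr, irg, dod and some nlp symbols). Of these, 46 were tested, with 3 higher (6.52%) and 6 lower (13.0%), near the shares of all features. Of the 7 genes of the p38 MAPK immune pathway, which includes the kinase gene pmk-1, all 7 were tested and 0 were called by edgeR, with 1 at an unadjusted p under 0.05. Of 12 galectin genes, which encode lectins of another fold, 10 were tested, with 2 higher and 1 lower, too few to read against those shares.

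Spermatogenesis genes differed between the same columns. Of 60 such genes (msp and spe), 53 were tested, 21 were higher in hrde-2 (39.6%, beside 8.95% of all features) and 2 were lower (3.77%, beside 9.7%). Their summed level was 228.1 and 257.0 CPM in hrde-2 on oma-1 dsRNA and on L4440 and 129.5 and 187.7 CPM in control, and between 0 and 4 of the 60 were at 0 in a column. Of 9 intestine genes, all tested, 0 were higher and 1 was lower (11.1%, beside 9.7%), with summed levels of 1085 and 811.6 CPM in hrde-2 and 1196 and 1166 CPM in control and none at 0. The part of the spermatogenesis shift in the C-type lectin differences was not tested.

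Many C-type lectin genes stand in clusters. With a gap under 10 kb to the next member, 47 clusters held 155 of the 240 members, and 18 of the 27 called members lay in one. By chromosome, 86 members lie on V, 53 on IV, 48 on II, 36 on I, 14 on III and 3 on X. Of those tested, 10 of 39 on V were higher in hrde-2 and 1 was lower, 5 of 34 on IV were higher and 1 was lower, and 3 of 29 on II were higher and 3 were lower. On I 2 of 17 were higher, on III 2 of 9 and on X 0 of 2, and 0 were lower on these 3. The shares over all features tested were 8.95% higher and 9.7% lower, and the chromosomes were not tested against each other. Of the 22 members called higher, 14 passed the filter through the hrde-2 columns only, where 11.4% of all features were higher and 0% lower. The 1 lower on IV is clec-70, kept through the control columns only. The counts by chromosome do not separate these members and are descriptions. The 13 genes of the largest cluster, on chromosome V, had 88 and 225 reads in all in hrde-2 on oma-1 dsRNA and on L4440 and 60 and 36 in control.

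The cluster that holds clec-70, with 11 members on chromosome IV, had neighbours with opposite differences. The gene clec-174, on the other strand, has its lowest coordinate 7.55 kb from that of clec-70. Its reads were in hrde-2 alone (18 and 70, against 0 and 0 in control), while those of clec-70 were nearly all in control (4 and 13 in hrde-2, against 206 and 234 in control). Between the pair lies clec-71, with 9 and 21 reads in hrde-2 on oma-1 dsRNA and on L4440 and 5 and 1 in control, which did not pass the test (edgeR adjusted p = 0.180). At 32.5 kb, clec-76 had 16 and 29 reads in hrde-2 and 5 and 2 in control, and was called higher (log2 1.75, edgeR adjusted p = 0.0139). Of the other 7 members of the cluster, 6 were tested and did not pass. The filter kept clec-174 and clec-76 through the hrde-2 columns only and clec-70 through the control columns only. Each was thus selected through the strain where it is higher, and these calls are descriptions. DESeq2 did not call clec-174 (adjusted p = 0.458) and gave clec-76 no adjusted p.

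**Figure D4:**
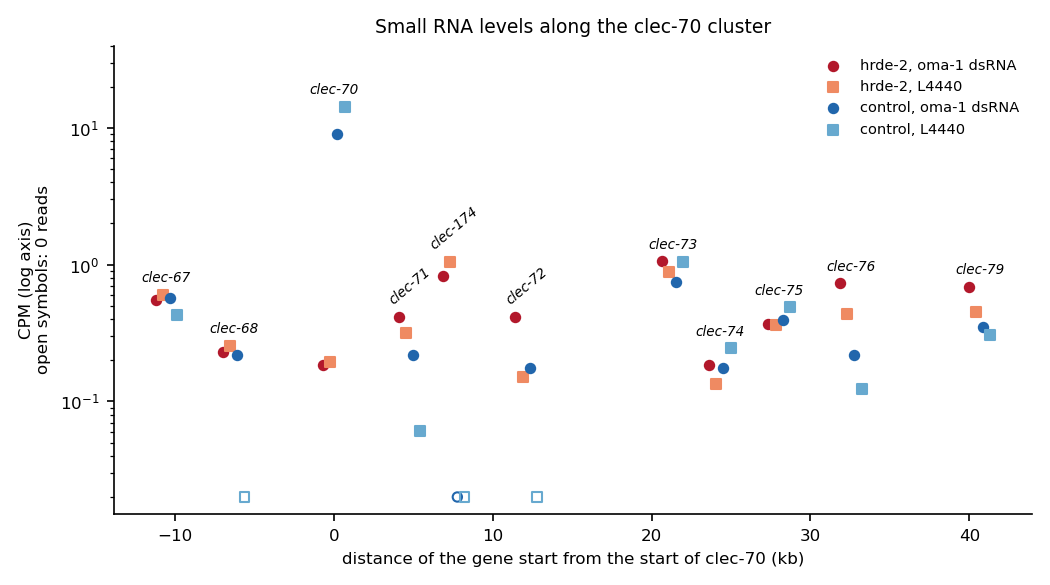
Level (CPM after TMM scaling, log axis, open symbols for 0 reads) of the 11 members of the clec-70 cluster in the 4 columns, by the distance of each gene's start from that of clec-70 in kb. The start is the lowest coordinate of the gene on either strand. Only clec-70 lies above 2 CPM, at 9.04 and 14.3 CPM in control, and clec-174 at 7.55 kb has reads in the hrde-2 columns alone.

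Between foods, few C-type lectin genes differed by 2-fold, and clec-223 had opposite directions in the 2 strains, a difference set against counting error only. In hrde-2, 6 members were compared between oma-1 dsRNA and L4440 and none reached 2-fold (beside 3.78% higher and 1.08% lower of 1853 features). In control, 1 of 6 members was higher on oma-1 dsRNA, beside 0.644% of 2018 features, and 0 were lower, beside 0.297%. That member was clec-223, with 131 reads on oma-1 dsRNA and 30 on L4440 in control, a ratio of 3.14 (2.10 to 4.83). In hrde-2 it had 120 reads on oma-1 dsRNA and 505 on L4440, a ratio of 0.726 (0.590 to 0.888). The 6 members compared in each strain include both clec-209 rows and are too few to read against the shares above.

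The genes named clec-209 came next, with 419 reads on oma-1 dsRNA and 156 on L4440 in control, a ratio of 1.93 (1.60 to 2.33). In hrde-2 they had 207 reads on oma-1 dsRNA and 543 on L4440, a ratio of 1.17 (0.988 to 1.37). For clec-70 in control the ratio was 0.632 (0.522 to 0.766), and in hrde-2 its level was under 5 CPM on both foods. The ratio of clec-219 was 1.13 in hrde-2 and 1.13 in control, and that of clec-215, compared in hrde-2 alone, was 0.977 (0.803 to 1.18).

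The difference between the responses, hrde-2 minus control on the log2 scale, was −2.11 for clec-223 (counting SE 0.327, interval −2.75 to −1.47). Of 7 members compared, 2 were lower by 2-fold or more, beside 3.07% of 2283 features, and 0 were higher, beside 9.86%. The second was clec-215 at −1.27 (counting SE 0.462, interval −2.18 to −0.37), and clec-209 stood at −0.73 (counting SE 0.179). For clec-219, clec-63 and clec-70 the differences were 0.01, 0.16 and 0.57, each with an interval that holds 0. The 7 members compared are 6 symbols, too few to read against the shares over all features. In both clec-223 and clec-215, control on L4440 was the lowest of the 4 columns, with 30 and 14 reads, so that 1 column of few reads carries much of each difference. For clec-223 the ratio of 0.726 in hrde-2, which does not use that column, adds to it.

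Averaged over genotypes, none of the 130 members tested passed edgeR's test of the food at an adjusted p under 0.05, beside 0.098% of all features higher and 0.0796% lower. Of the 130, 7 had an unadjusted p under 0.05, and with DESeq2 0 had one and 0 were called. For clec-223 the log2 value was 0.40 and the edgeR adjusted p was 0.9995. At a level of 1 CPM, 0 of 33 members compared in hrde-2 were higher on oma-1 dsRNA, beside 2.16% of 7167 features, and 2 were lower, beside 1.23%. In control 4 of 22 were higher, beside 2.47% of 7242 features, and 0 were lower, beside 1.62%.

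The family's summed level differed little between groups with TMM scaling over all features kept. It was 150.2 CPM in hrde-2 on oma-1 dsRNA, 145.9 in hrde-2 on L4440, 148.6 in control on oma-1 dsRNA and 127.0 in control on L4440. As a ratio, hrde-2 over control, this was 1.01 (0.963 to 1.06) on oma-1 dsRNA and 1.15 (1.10 to 1.21) on L4440. With the authors' constants the same ratios were 1.49 and 2.01, with TMM over features at 10 CPM in 3 columns 1.82 and 2.18, and with library size alone 2.06 and 3.04, so that the summed genotype difference depends on the scaling. Between foods, oma-1 dsRNA over L4440, the ratio was 1.03 (0.989 to 1.07) in hrde-2 and 1.17 (1.11 to 1.24) in control. With TMM over features at 10 CPM these were 0.852 and 1.02. All sums count identical rows, such as those of clec-209, in full, which the intervals do not allow for. With TMM over all features kept but without the marked members, hrde-2 over control was 1.20 on oma-1 dsRNA and 1.37 on L4440.

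**Figure D5:**
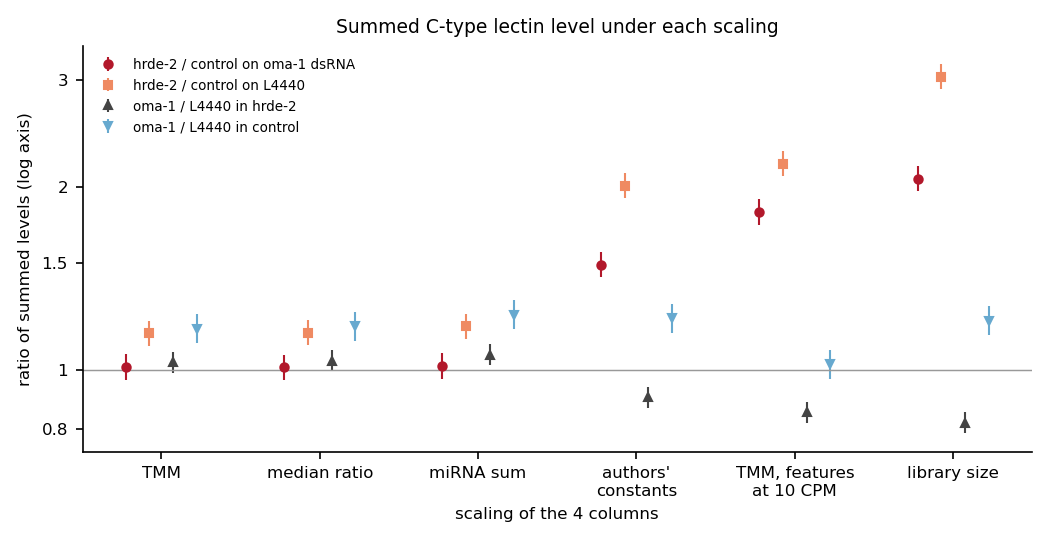
Ratio of the summed level of all 240 C-type lectin genes (log axis, bars for 95% counting intervals) in 4 comparisons under 6 scalings of the columns. The genotype ratios lie between 1.01 and 1.18 with TMM, the median ratio and the miRNA sum, and between 1.49 and 3.04 with the authors' constants, TMM over features at 10 CPM and library size alone.

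Possible sharing of reads between genes limits what can be said of single members. No sequences were compared, and the identical and near-equal marks rest on counts alone. The near-equal rule allows 15 reads, more than clec-215 (14) or clec-56 (7) had in control on L4440. Of the 240 members, 14 were marked as possibly sharing reads: 5 had an identical row, 10 a near-equal row at 400 reads or more, and 1, clec-99, overlaps a tRNA gene, with some marked on more than 1 count. Among the abundant members clec-223 had no such partner. For clec-87 there were 84 near-equal genes, for clec-56 and clec-63 there were 2 each, and for clec-219, clec-215 and clec-70 there was 1 each. In addition, 51 members overlap another annotated gene, and no source used here gives the strand setting of the counting. Among them is clec-3, which overlaps C41H7.2, annotated on the plus strand.

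Pseudogenes of the family, which are not members, also had small RNA reads. There were 25 with a C-type lectin name in RefSeq. The highest, clec-188 on chromosome IV, had 215 and 937 reads in hrde-2 on oma-1 dsRNA and on L4440 and 462 and 277 in control, log2 differences of −1.04 on oma-1 dsRNA and −0.27 on L4440.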

How the data were processed

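Small RNA was taken from adult whole animals, enriched with a mirVana kit and cloned independently of a 5′ monophosphate, with barcodes of 4 nt (5′ end) and 6 nt (3′ end), per the labels' protocols. HTSeq 0.6.1 is named in the submitters' processing notes. No source used here gives the aligner, build, strand setting or the way 3 samples became 1 column. The deposited table holds raw read counts per gene for each group. A second block, a normalized signal that the authors made by dividing counts by 1 constant per column (0.87 for hrde-2 on oma-1, 2.33 for hrde-2 on L4440, 1.34 for control on oma-1, 1 for control on L4440), gave a scaling alternative. Of all reads, 34.7 to 40.1% were assigned to genes, 40.4 to 42.4% were ambiguous, 17.6 to 21.4% had no feature and 1.92 to 2.76% were not aligned, and only the first were used.

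Identifiers were joined to the Ensembl 115 annotation of WBcel235 (46364 matched, 362 did not). TMM factors came from 16329 features kept by filterByExpr of edgeR 4.0.16 (minimum count 10, total 15), and the scale, with control on L4440 as 1, was 1.33 for hrde-2 on oma-1, 4.08 for hrde-2 on L4440 and 1.39 for control on oma-1, against 0.634, 1.54 and 1.35 for library size. Single ratios carry exact conditional binomial (Clopper-Pearson) 95% intervals, which cover counting error only, and log2 differences use a prior count of 0.5. Averaged effects were tested with glmQLFit (robust) and glmQLFTest, with Benjamini-Hochberg adjustment over the features kept, and with DESeq2 1.42.0 as an alternative. The common dispersion was 0.0305 and the prior degrees of freedom at least 453, so the spread was shared over nearly all features. The code was checked on simulated data.

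The members, lists and named genes were chosen with earlier results of these data known. Named are clec-223 and clec-70, members past the call rule (up to 10 in each direction), the 10 with most reads per kilobase, near-equal partners of clec-56, clec-70, clec-215 and clec-219 (within 5% or 15 reads in each column, at 400 reads or more) and list members that were compared. The genes of the clec-70 cluster and clec-188 were named after their values were seen. Alternatives were the scaling, the level, the filter, the prior count, the tool and leaving out marked members.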

Additional observations from a re-analysis of the deposited data

Results flagged for a closer look

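The response of clec-223 to oma-1 dsRNA had opposite directions in the strains. The ratio of oma-1 dsRNA over L4440 was 0.726 in hrde-2 and 3.14 in control. The 95% counting intervals, 0.590 to 0.888 and 2.10 to 4.83, lie on opposite sides of 1, but with 1 column per group the difference was not tested against any spread between animals. The rise in control rests on control on L4440, with 30 reads, and with library size alone clec-223 in control no longer reaches the 5 CPM level of comparison. The fall in hrde-2 does not use that column, and its ratio lay between 0.579 (library size) and 0.748 (miRNA sum) over the scalings.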

How the results depend on the processing

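No paired analysis was possible because the table has 1 column per group, so neither a replicate block nor leave-one-out could be run. Counts are members higher or lower by the rule of each comparison. Shares over all features are not given beside them, and a change of scaling moves all features, so they are not read as results about the members. With library size alone, 9 members were higher in hrde-2 on L4440 and 6 on oma-1 dsRNA, 0 were higher on oma-1 dsRNA in control, 5 had a lower response, and the averaged genotype test called 80 higher and 1 lower. The sum ratios were then 3.04 (hrde-2 over control on L4440), 2.06 (on oma-1 dsRNA) and 0.820 (oma-1 dsRNA over L4440 in hrde-2), and clec-88 and clec-65 had log2 values of 0.29 and 0.33, on the other side of 0. With the authors' constants the counts were 5, 2 and 2 higher (hrde-2 on L4440, hrde-2 on oma-1 dsRNA, oma-1 dsRNA in control), the genotype test gave 39 and 1, and the sum ratios were 2.01, 1.49 and 0.902. With TMM over features at 10 CPM in 3 columns (added after seeing the data), 5 and 4 members were higher in hrde-2 on L4440 and on oma-1 dsRNA, 0 were higher on oma-1 dsRNA in control, the genotype test gave 65 and 1, and the sum ratios were 2.18, 1.82, 0.852 and, between foods in control, 1.02. With the miRNA sum 3 members were higher on oma-1 dsRNA in control. At a level of 1 CPM, 11 were higher and 3 lower in hrde-2 on L4440, 11 and 4 on oma-1 dsRNA, 2 were lower on oma-1 dsRNA in hrde-2, 4 were higher in control, and responses were 3 higher and 7 lower. At 10 CPM 0 remained past the rule except clec-70 on L4440. Without the marked members, 1 was higher and 0 lower in hrde-2 on L4440, 0 and 0 on oma-1 dsRNA, 1 had a lower response, and the sum ratios were 1.37, 1.20 and 0.987. Where 10 CPM in 3 columns was asked for, 3 members and none of those called were tested, and the averaged genotype test gave 1 higher (clec-219) and 0 lower with factors from those features, against 0 and 0 with the factors of all features kept (added after seeing the data). It gave 4 and 1 with DESeq2, under which 16 of the 21 called members that had an adjusted p lost the call. The cause of the other shifts was not tested. The median-ratio factors, a prior count of 2, no filter and TMM over protein-coding genes (added likewise) kept every count within 1.5 times. Depth limits the members: 164 of 240 had under 40 reads in all columns together, and 5 CPM is 109.1 and 333.3 reads in hrde-2 and 113.9 and 81.8 in control.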
